A study of Mus musculus with 98 samples.

Results

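The cells described here are the 252 cells that carry the label nTEC, the study's abbreviation for neural thymic epithelial cells (TECs), among 21451 labelled cells of the newborn thymic stroma. The members were found by that deposited label alone. They are 1 of 29 labels in the data, of which 9 are TEC labels, and they were set beside the 8831 cells of the other 8 TEC labels, the 67 cells labelled NC (neural crest) and the 5806 cells of the 11 fibroblast labels. Cells came from thymi of mice at postnatal day 0 (P0), from 3 compound heterozygotes, Tbx1+/-Crkl+/-, and 3 wild-type (WT) littermates. The heterozygotes carry a lacZ allele of Tbx1 and a germline null allele of Crkl, a T-box transcription factor gene and an adapter protein gene of the region that is lost in 22q11.2 deletion syndrome. Live Ter119-CD45- cells, which are depleted of erythroid and haematopoietic cells and hold epithelium, fibroblasts, vessels and neural crest cells together, were sorted, fixed in RNAprotect and captured with the 10x 3′ kit. The study's methods give 3 animals per genotype, and the p-values of the genotype tests measure the spread between these 6 libraries. Bulk libraries of sorted cells were also used, and they came from WT mice only, at P0 and at an older age given with those results. The p-values of the bulk comparisons measure the spread between bulk libraries.

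The thymus is built by TECs that attract and select developing T cells. Medullary TECs are known for transcribing genes of many other tissues, and part of them takes on the features of specialised peripheral epithelia, among them neuroendocrine cells, which are defined by transcription factors such as Insm1, by granule proteins such as chromogranin A, and by the machinery of regulated exocytosis. Neural crest cells and their glial descendants express Sox10 and Foxd3 instead, while fibroblasts make fibrillar collagens and the receptor Pdgfra.

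The libraries of the heterozygotes held 1687, 5328 and 3285 labelled cells and those of WT held 2375, 3115 and 5661, with 4978011 to 31418527 UMIs (unique molecular identifiers, 1 per captured transcript) per library. The cells labelled nTEC numbered 9 and 11 in replicates 1 and 3 of the heterozygotes and 6, 17 and 65 in WT. Replicate 2 of the heterozygotes held 57.1% of them and WT replicate 3 another 25.8%, and pooled values are mostly those of these libraries. The median depth was 2390.5 UMIs and 1366.5 genes in the cells labelled nTEC, 2968 UMIs in the other TECs and 3240 UMIs in the fibroblast labels. With every cell cut down by random draws to 2000 UMIs, a depth that 174 of the 252 cells reach, the median number of genes was 1212.5 in the cells labelled nTEC, 1198 in the other TECs and 1193 in the fibroblast labels. Of the barcodes, 44 were found in more than 1 library, and 3 of the cells labelled nTEC carried such a barcode. The deposited clustering placed 238 of the 252 cells in its cluster 9, with 716 other TECs, among them 320 labelled ItTEC (intertypical) and 213 labelled PcTEC (perinatal cortical).

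The genes in which the cells labelled nTEC most exceeded the other TECs were genes of fibroblasts. Levels are CPM, the counts of a gene scaled to 1000000 UMIs summed over cells, and since the label was made from these same counts the differences between labels are a description with no test. The first 25 of the 100 leading genes were Pdgfra, Lum, Col6a3, Sele, Zim1, Col3a1, Lama2, Tshz2, Col1a2, Dlk1, Col15a1, Abca8a, Adamts5, Col1a1, Bgn, Col6a2, Mest, Colec12, Ptn, Itih5, Igfbp3, Gdf10, Cpe, Dcn and Adam33. Among these 25 are collagen chains, the small leucine-rich proteoglycans Lum, Bgn and Dcn, and the imprinted fetal genes Zim1, Dlk1 and Mest. All 100 were higher in the fibroblast labels as 1 class than in the cells labelled nTEC, and the cells labelled nTEC were the highest of the 29 labels for 0 of the 100. A fibroblast label was highest for 78 of them, pericytes for 8 and NC for 5.

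Pdgfra, the PDGF receptor that marks fibroblasts, had 315 CPM in the pooled cells labelled nTEC, 14.6 CPM in the other TECs and 453 CPM in the fibroblast labels. By library its level in the cells labelled nTEC was 40.2, 274 and 291 CPM in the heterozygotes and 233, 398 and 374 CPM in WT, where the other TECs ranged from 5.18 to 36.2 CPM. Each library of the cells labelled nTEC lay above every library of the other TECs. The 40.2 CPM in replicate 1 of the heterozygotes is 1 UMI, so the order of that library is uncertain. For Col3a1, the chain of type III collagen, the cells labelled nTEC had 3654, 2989 and 2262 CPM in the heterozygotes and 3446, 4617 and 3901 CPM in WT. The other TECs ranged from 176 to 665 CPM and the fibroblast labels from 5831 to 8254 CPM for this gene, so the 3 classes did not overlap. Dlk1, a fetal Notch-like membrane protein, followed the same order, with 1454 to 3348 CPM in the cells labelled nTEC, 123 to 480 CPM in the other TECs and 1995 to 4988 CPM in the fibroblast labels, and here the first and the last class overlapped. Of the 100 leading genes, 79 were above the other TECs in all 6 libraries and 15 in 5.

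All 8 genes of the mesenchyme list (Col1a1, Col1a2, Col3a1, Pdgfra, Pdgfrb, Dcn, Lum and Dpt) were higher in the cells labelled nTEC than in the other TECs, and all but Dpt were among the 100 leading genes. Pdgfrb stood at 295 against 38.2 CPM and Dpt at 31.03 against 8.60 CPM. The list summed to 11123, 8868 and 5912 CPM in the cells labelled nTEC of the heterozygotes and to 10385, 12018 and 12307 CPM in those of WT (10102 ± 2397, SD, n = 6). The other TECs had 597 to 2109 CPM and the fibroblast labels 15078 to 23531 CPM, so that the cells labelled nTEC lay between both in every library. Among the other TEC labels PAmTEC was nearest with 3510 CPM, followed by ItTEC with 2073 CPM. The NC cells had 6751 CPM, the pericytes 4620 CPM and the 32 cells labelled sTEC (structural TEC) 672 CPM, all pooled over libraries.

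**Figure D1:**
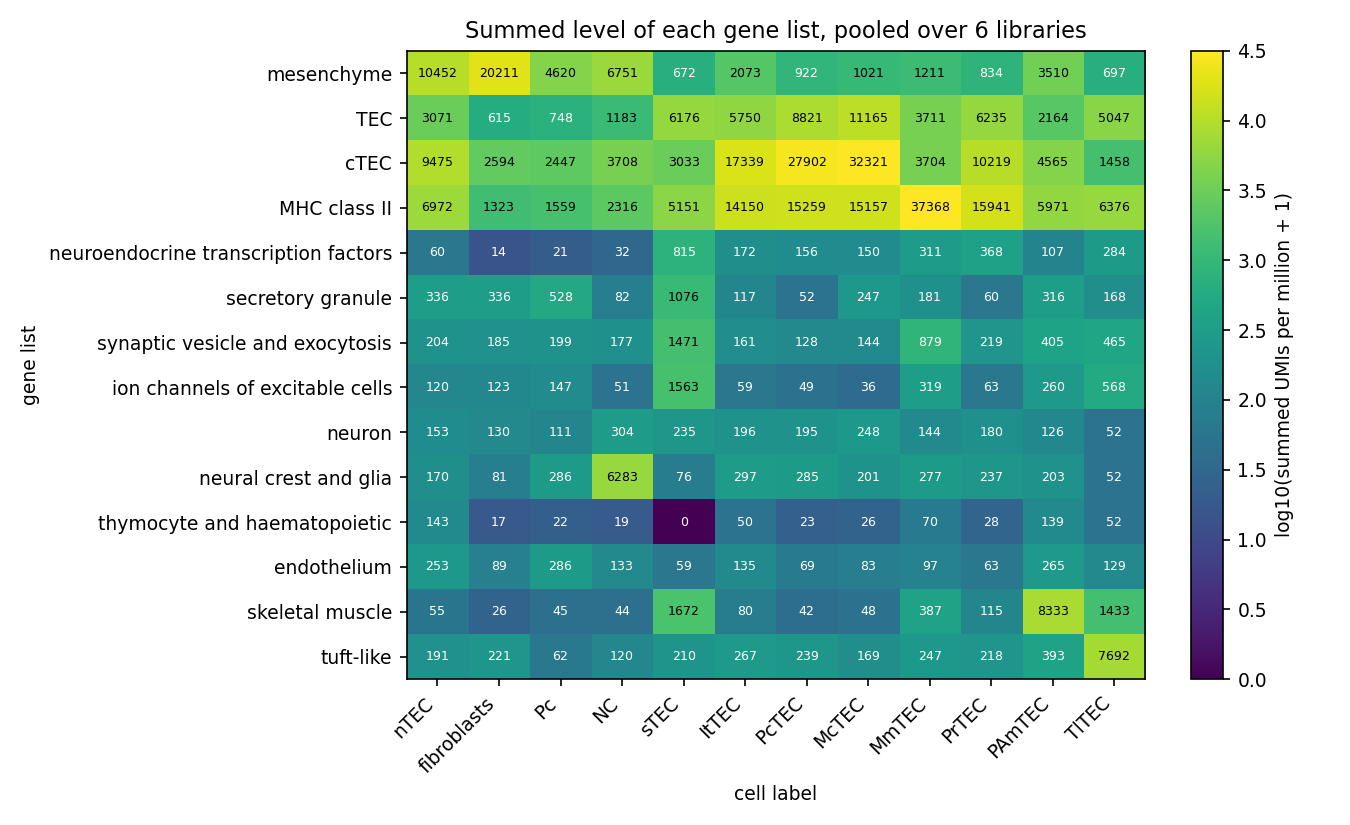
Summed level of each gene list (rows) in the cells of each label (columns), pooled over 6 libraries, as CPM printed in each cell and coloured by log10 of that value plus 1. The cells labelled nTEC combine 10452 CPM of the mesenchyme list with 3071 CPM of the TEC list, while the neuroendocrine, granule, vesicle and ion channel lists are highest in sTEC and the neural crest list in NC.

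The epithelial lists were lower than in the other TECs as 1 class. All 9 genes of the TEC list, all 9 of the cortical, all 10 of the medullary and all 7 of the MHC class II list were lower in the cells labelled nTEC than in the other TECs. Epcam, the epithelial adhesion molecule, had 211 CPM against 524 CPM in the other TECs and 38.1 CPM in the fibroblast labels, and in every library it was lower in the cells labelled nTEC than in the other TECs. The ratio to the other TECs ranged over the TEC list from 0.239 for Pax1, a transcription factor of the pharyngeal pouches, to 0.402 for Epcam. Over the members with at least 20 UMIs in the cells labelled nTEC, the median ratio was 0.362 for the TEC list (9 of 9 genes), 0.413 for the cortical list (7 of 9), 0.381 for the medullary list (5 of 10) and 0.414 for MHC class II (6 of 7). Single TEC labels lay lower than the cells labelled nTEC on each list. PAmTEC was lower on the TEC list (2164 against 3071 CPM), MmTEC, PAmTEC, TlTEC and sTEC on the cortical list (1458 to 4565 against 9475 CPM), PcTEC, TlTEC and sTEC on the medullary list (309.8 to 504 against 591 CPM), and PAmTEC, TlTEC and sTEC on the MHC class II list (5151 to 6376 against 6972 CPM). Krt8, a simple epithelial keratin, stood at 927 against 2564 CPM, Prss16, the cortical serine protease, at 628 against 1960 CPM, Aire, which drives tissue-restricted transcription in the medulla, at 52.1 against 136.8 CPM, and Cd74, the MHC class II invariant chain, at 3410 against 7997 CPM. The TEC list summed to 3012 ± 447 CPM (SD, n = 6) in the cells labelled nTEC, 7516 ± 1884 CPM in the other TECs and 660 ± 283 CPM in the fibroblast labels.

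**Figure D2:**
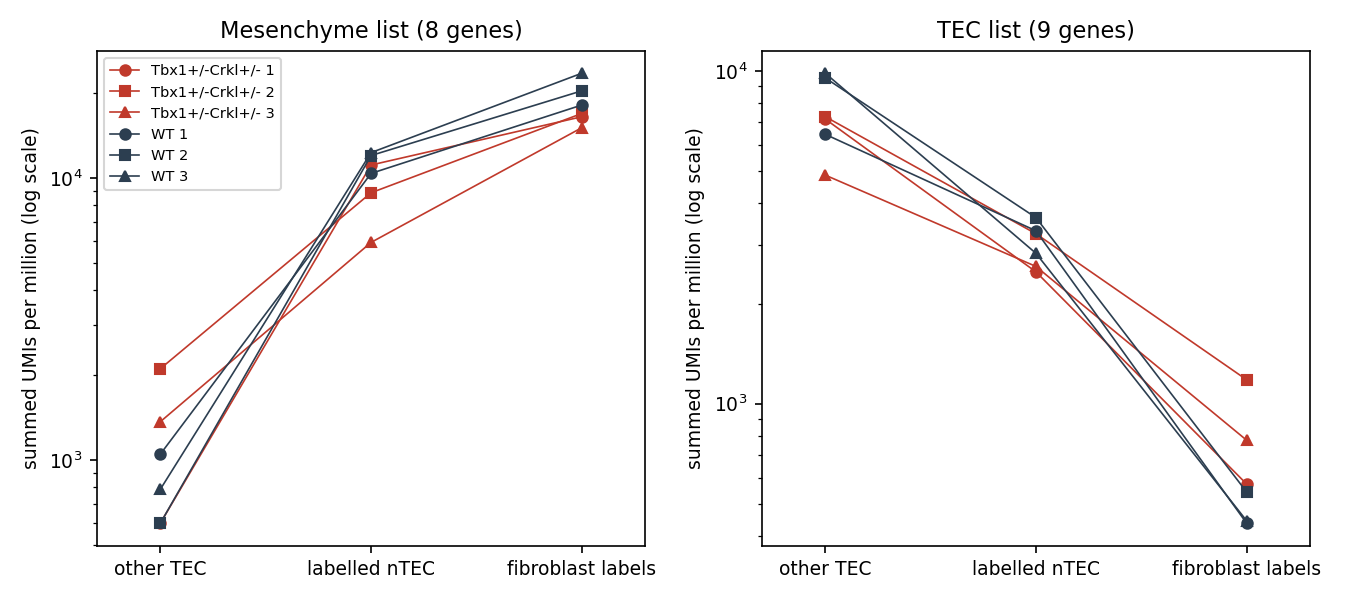
Summed level of the mesenchyme list (left, 8 genes) and the TEC list (right, 9 genes) on a log scale, in CPM, for the other TECs, the cells labelled nTEC and the fibroblast labels, with 1 line per library. In each of the 6 libraries the cells labelled nTEC lie between the other classes on both lists.

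The leading genes were below their level in fibroblasts by a moderate factor in the pooled cells. The median over the 100 genes of the ratio of the cells labelled nTEC to the fibroblast labels was 0.623, with quartiles of 0.558 and 0.693 and a range of 0.389 to 0.933. For Pdgfra the ratio differed between libraries, with 40.2 against 547 CPM in replicate 1 of the heterozygotes and 374 against 367 CPM in WT replicate 3. The 40.2 CPM is 1 UMI, so this spread includes counting error. A sum of the profile of the other TECs and of the fibroblast labels of the same library, with weights fitted by nonnegative least squares, gave weights of 0.324 ± 0.0592 for the other TECs and 0.577 ± 0.0665 for the fibroblasts (SD, n = 6). Fitted to the pooled profiles the weights were 0.356 and 0.627, and over 12815 genes the log2 levels of the cells labelled nTEC had a Pearson r of 0.977 with that sum (0.701 to 0.959 by library), against 0.906 with the other TECs alone and 0.951 with the fibroblasts alone. All of these profiles come from the same libraries and share their depth and free RNA, so the r is a description. Of 4948 genes with enough UMIs to be eligible for the leading list, 4926 lay within 1 log2 unit of the sum, 18 lay above it and 4 below it. By Spearman correlation over the same 12815 genes the labels most like the cells labelled nTEC were the medullary fibroblasts MedFb2a and MedFb1b and the capsular fibroblasts CapFb1b (each 0.935), and ItTEC was the most alike among TECs at 0.911. NC stood at 0.774 and sTEC at 0.653, with the reservation that labels of few cells have noisier profiles.

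Both programmes were counted in the same cells. At a fixed depth of 2000 UMIs the median cell labelled nTEC held 17 UMIs of the mesenchyme list and 5.5 UMIs of the TEC list, against 1 and 13 UMIs in the other TECs and 31 and 1 UMIs in the fibroblast labels. At least 3 UMIs of each list were found in 83.9% of 174 cells labelled nTEC, in 27.5% of the other TECs and in 16.2% of fibroblast-labelled cells. By library the share was 71.4, 87.3 and 77.8% in the heterozygotes and 40.0, 92.3 and 83.6% in WT, where WT replicate 1 rests on 5 cells. The 716 other TECs in cluster 9 were like them in this respect, with 81.1% of the 333 that reach this depth, and their mesenchyme and TEC lists stood at 5241 and 4920 CPM. The 14 cells labelled nTEC outside cluster 9 had 9477 CPM of the mesenchyme list.

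**Figure D3:**
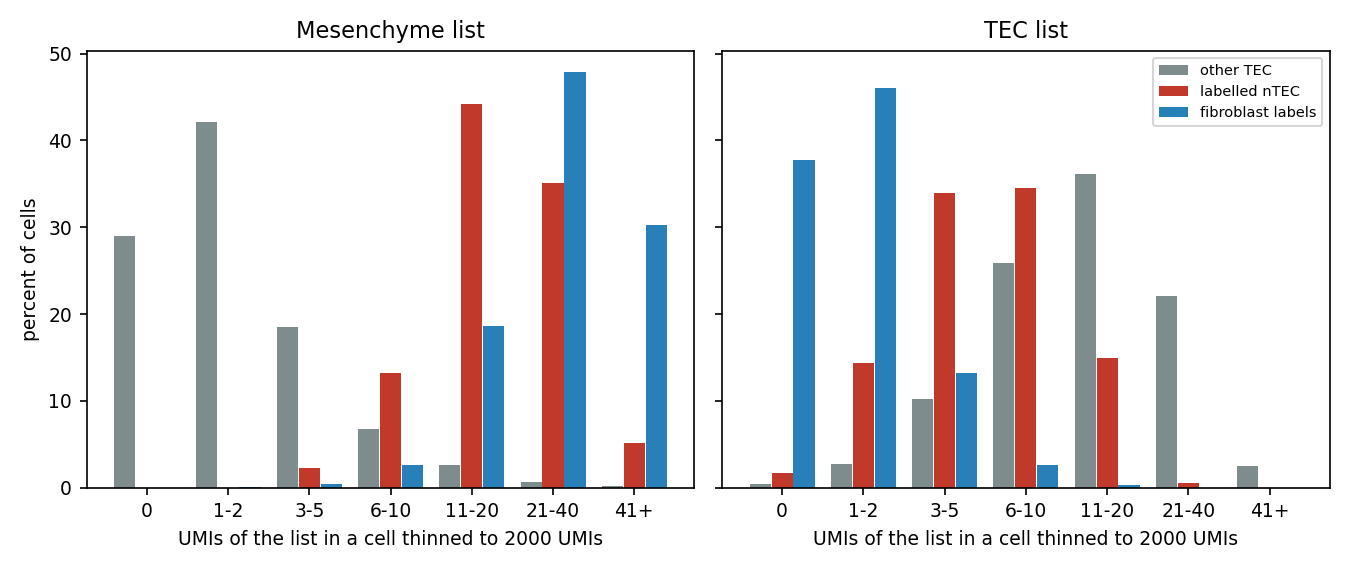
Share of cells (percent) by the number of UMIs of the mesenchyme list (left) and of the TEC list (right) in a cell thinned to 2000 UMIs, for 6749 other TECs, 174 cells labelled nTEC and 4713 fibroblast-labelled cells. The cells labelled nTEC have a median of 17 and 5.5 UMIs and lie between the other classes on both lists.

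Transcripts of both programmes were also counted in cells that should make neither. Cells labelled Thy (thymocytes), which do not make collagen or keratin, had 2701 CPM of the mesenchyme list and 2457 CPM of the TEC list, and 57.9% of them held a UMI of Col3a1 at a median depth of 2071 UMIs. After thinning, Col3a1 was found in 98.3% of the cells labelled nTEC, 38.2% of the other TECs and 53.2% of the thymocytes, and Pdgfra in 40.8, 2.58 and 8.16%. The authors kept cells called as singlets by DoubletFinder before deposit, and no caller was run here. The part that free RNA or droplets with RNA of more than 1 cell have in these profiles was not tested. By library, the median depth of the cells labelled nTEC was above that of both the other TECs and the fibroblast labels in 3 libraries, replicates 1 and 3 of the heterozygotes (3142 and 2795 UMIs) and WT replicate 1 (2766.5 UMIs), and below both in the other 3 (2083.5, 3438 and 3875 UMIs).

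The neuroendocrine transcription factors were lower in these cells than in the other TECs for 8 of the 9 genes measured. The pooled sums of the granule and ion channel lists were above those of the other TECs. The list names 12 factors, and Neurod1, St18, Foxa2 and Foxa3 had 0 UMIs in all 252 cells. The list summed to 59.6 CPM against 182.5 CPM in the other TECs, 13.9 CPM in fibroblasts and 815 CPM in sTEC. Insm1 stood at 6.21 CPM against 17.6 CPM in the other TECs and 142.8 CPM in sTEC, and Isl1, the largest contributor in the cells labelled nTEC, at 42.2 against 130 and 100.8 CPM. A count of 0 in 805689 UMIs allows up to 3 counts, and it limits the level in these cells rather than the number of cells that make the transcript.

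The secretory granule list summed to 336 CPM in the cells labelled nTEC and to 104 CPM in the other TECs, and Cpe, carboxypeptidase E, gave 294 CPM of it. The level in the other TECs rests on replicate 2 of the heterozygotes, with 276 CPM there and 39.5 to 77.6 CPM in the other 5 libraries, and without that library the sums were 358 against 58.5 CPM. Cpe was the only 1 of the 100 leading genes to be in a neural list, and it stood at 318 CPM in the fibroblast labels and was highest in pericytes. Chga, chromogranin A, had 17.4 CPM against 47.7 CPM in the other TECs and 504 CPM in sTEC, and Chgb, Scg2, Pcsk1n and Ptprn had 0 UMIs. Of its 14 genes 6 were higher and 8 lower than in the other TECs. Of the 23 genes of synaptic vesicles and exocytosis, Snap25, Syt13, Rab3c, Cplx1 and Syn1 had 0 UMIs, 9 were higher and 14 lower than in the other TECs, and the list summed to 204 CPM against 197 CPM in the other TECs and 1471 CPM in sTEC. Without replicate 2 of the heterozygotes this order turned, with 182.4 against 200.6 CPM. Vamp2 (53.4 CPM) was slightly lower than in the other TECs, with a ratio of 0.958, and Rab3a (33.5 CPM) was higher, with 3.70. Both stood at 67.3 and 33.97 CPM in the fibroblast labels. The ion channel list had 120 CPM in the pooled cells labelled nTEC, 75.5 CPM in the other TECs, 123 CPM in fibroblasts and 1563 CPM in sTEC. Of its 15 genes 7 were higher and 8 lower than in the other TECs, and Kcnk16, Kcnh6 and Kcnj11 had 0 UMIs. In WT replicate 1 the sum went the other way, with 46.6 against 99.4 CPM. Cacna2d1, a calcium channel subunit, had 47.2 CPM in the cells labelled nTEC, 68.6 CPM in fibroblasts and 647 CPM in sTEC.

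Markers of neurons and of the neural crest were mixed. The neuron list summed to 153 CPM against 198 CPM in the other TECs, with 9 of 15 genes higher and 6 lower, and with Hand2, a transcription factor of sympathetic neurons and of mesenchyme, at 40.96 CPM beside 49.7 CPM in the fibroblast labels, and Stmn3 and Dbh at 0 UMIs. The neural crest and glia list had 170 CPM in the cells labelled nTEC, 267 CPM in the other TECs and 6283 CPM in NC, and 7 of its 14 genes were higher and 7 lower than in the other TECs. Without replicate 2 of the heterozygotes the sum was 105 against 261 CPM in the other TECs, with 5 genes higher and 9 lower. Sox10, the defining factor of the lineage, and Cdh19 had 0 UMIs.

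Single cells with several of these genes were few among those labelled nTEC. At least 5 of the 46 genes of the neuroendocrine, granule and vesicle lists were detected in 5 of 252 cells labelled nTEC (1.98%), in 2.299% of the other TECs and in 19 of the 32 cells labelled sTEC (59.4%). After thinning this held for 0 of 174 cells labelled nTEC, which allows a share of up to 1.72%, for 31 of 6749 other TECs (0.459%), which lies within that limit, and for 11 of 27 cells labelled sTEC. At least 5 of the 14 genes of the neural crest list were found in 1 cell labelled nTEC and in 46 of 67 NC cells (68.7%). The 100 genes that led in the sTEC label, headed by Cryba2, Slc38a5 and Cib3, shared 0 genes with the 100 that led in the cells labelled nTEC. The leading genes go against the name neural TEC, and the cells are called here by their label alone. The neuroendocrine, granule, vesicle and ion channel lists were highest in the label sTEC, while the neuron list was highest in EnA, an endothelial label, and the neural crest list in NC. Whether both labels, nTEC and sTEC, were exchanged in the deposited table could not be settled from these data, and every value given for nTEC or sTEC is that of the label as deposited.

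The alleles could not be checked in these cells. Tbx1 had 0 UMIs in the cells labelled nTEC of all 3 heterozygotes and 0, 0 and 1 UMI in WT. In the fibroblast labels it had 0, 0 and 1 UMI in the heterozygotes and 3, 2 and 12 UMIs in WT, so the groups did not overlap there. In the other TECs it had 0, 0 and 2 UMIs in the heterozygotes and 3, 3 and 2 UMIs in WT (0 to 0.508 against 0.162 to 1.39 CPM), and those groups overlapped. Crkl had 0, 6 and 0 UMIs in the cells labelled nTEC of the heterozygotes and 0, 1 and 5 UMIs in WT. In the other TECs it stood at 23.4 ± 4.88 CPM in the heterozygotes and 20.6 ± 3.65 CPM in WT (SD, n = 3), and whether its 3′ tag lies in the deleted part was not examined, so it does not check the labels.

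The genotypes did not differ detectably in the share of these cells. They made up 1.11% (95% exact binomial interval 0.508 to 2.09), 5.60% (4.74 to 6.56) and 0.840% (0.420 to 1.497) of the TECs in the heterozygotes and 0.901% (0.331 to 1.95), 1.25% (0.729 to 1.99) and 2.75% (2.13 to 3.49) in WT, and the intervals cover counting error only. The high value of the heterozygotes is that of replicate 2, and the others lay within the range of WT or just under it. The means were 2.52 ± 2.67% and 1.63 ± 0.984% (SD, n = 3), and a two-sided exact permutation test gave p = 0.9, where 0.1 is the smallest p this design allows. The quasi-likelihood test of edgeR on cell numbers gave a log2 difference of 0.62 (SE 0.81, Benjamini-Hochberg adjusted p = 0.580), and 0 of the 9 TEC labels passed (0%), with 1 label, PrTEC (proliferating TECs), at an unadjusted p under 0.05 (0.0419). Without replicate 2 of the heterozygotes the difference was -0.89, in the other direction. That library also had the highest level of the mesenchyme list in its other TECs, 2109 CPM, and of the TEC list in its fibroblasts, 1180 CPM against 438 to 777 CPM elsewhere, and their part in the share was not tested.

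**Figure D4:**
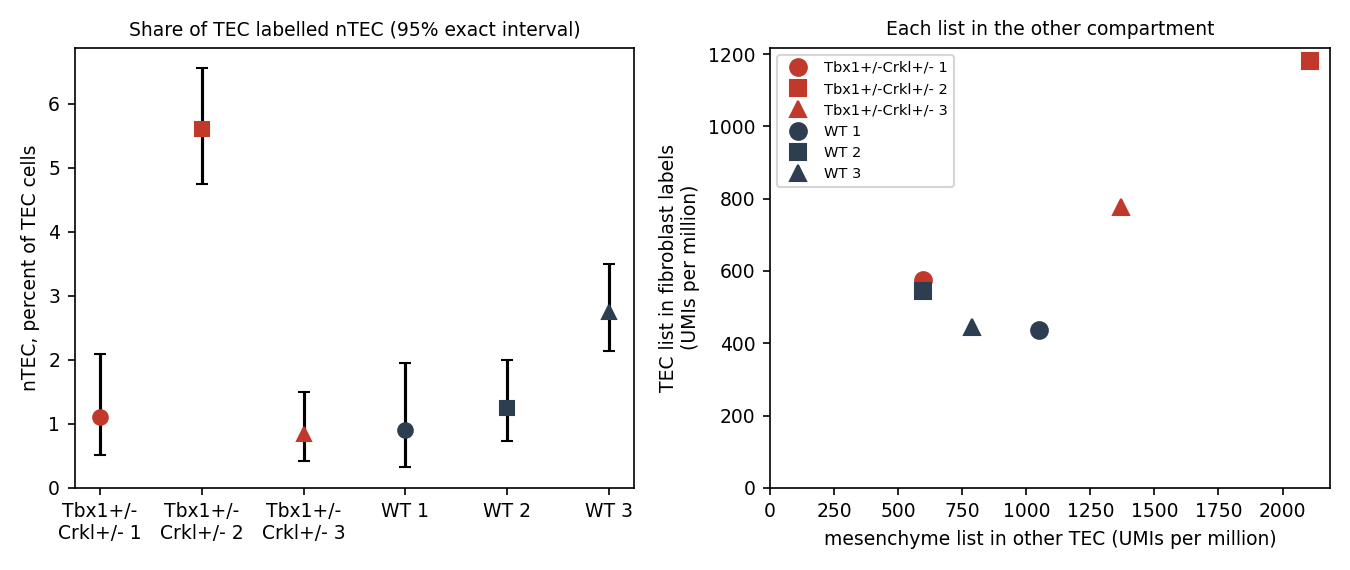
Left, share of TECs labelled nTEC (percent) in each of 3 Tbx1+/-Crkl+/- and 3 WT libraries, with 95% exact binomial intervals. Right, the mesenchyme list in the other TECs against the TEC list in the fibroblast labels, both in CPM. Replicate 2 of the heterozygotes stands highest on all 3 measures, with 5.60%, 2109 CPM and 1180 CPM.

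Expression within the cells labelled nTEC did not differ past the threshold between the genotypes in the fit without a block. Of 807 genes that passed the filter, 0 were called by the quasi-likelihood test of edgeR at an adjusted p of 0.05 (0%). Of the 807, 76 had an unadjusted p under 0.05, and DESeq2 also called 0. With the replicate number as a block, edgeR called 2 of 1040 genes, Nav2 among them (adjusted p = 0.0327). Without the block the smallest adjusted p was 0.0536, for Nav2 and for Lum. Nav2, which encodes a protein of neurite guidance, had 522, 217 and 355 CPM in the heterozygotes and 46.6, 85.2 and 42.3 CPM in WT (log2 2.65, SE 0.58). In the other TECs Nav2 had 945, 473 and 997 CPM in the heterozygotes and 923, 671 and 433 CPM in WT. Its difference between the genotypes was larger in the cells labelled nTEC by 2.12 on the log2 scale (SE 0.49, adjusted p = 0.0119, edgeR). That call was lost in 3 of the fits that left out a library and with DESeq2 (adjusted p = 0.283). In the fibroblast labels Nav2 was also higher in the heterozygotes without overlap, with 35.7, 49.2 and 46.1 against 25.8, 18.1 and 14.0 CPM. Lum, the proteoglycan lumican, had 201, 300 and 226 CPM in the heterozygotes and 512, 682 and 1002 CPM in WT (log2 -1.49, SE 0.33), and in the fibroblast labels 709, 670 and 472 against 835, 968 and 1251 CPM. The groups did not overlap for either gene, and both values are named because they came nearest to the threshold. Both passed without replicate 3 of the heterozygotes (edgeR adjusted p = 0.0035 for Nav2 and 0.0322 for Lum) and without WT replicate 1 (0.00222 and 0.00983), and neither passed when any other single library was left out. Ccl21a, the medullary chemokine that draws thymocytes, followed with 120, 188 and 162 against 279, 1151 and 368 CPM (adjusted p = 0.108, edgeR). Of the leading genes 46 were tested and 0 called, 38 were lower and 8 higher in the heterozygotes, and their median log2 difference was -0.46 against -0.01 over all genes tested. In the fibroblast labels the mesenchyme list was lower in the heterozygotes too, with 15078 to 16940 CPM against 18150 to 23531 CPM in WT.

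The difference between the genotypes in the cells labelled nTEC was then set against that in the other TECs of the same libraries. In this interaction test 27 of 11902 genes passed (0.227%; edgeR, quasi-likelihood), of which 23 (0.193%) had a lower difference in the cells labelled nTEC, and 19 of those 23 were leading genes. The rule that chose the leading genes did not use the genotype but did use these cells. The median over the 100 leading genes was -1.52, against 0.07 over all genes. In the other TECs, 25 of the 27 genes had a higher level in the heterozygotes than in WT. The test subtracts the difference in the other TECs, so genes called with a lower value tend to be higher in the heterozygotes there. This count is therefore no separate result, and the share over all genes is not given here.

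Meg3, an imprinted noncoding RNA, was highest in PAmTEC, 1 of the other TEC labels (10779 CPM), above the fibroblast labels (5892 CPM). It had 611, 526 and 1031 CPM in the other TECs of the heterozygotes and 396, 157 and 206 CPM in those of WT, without overlap. In the cells labelled nTEC the same gene had 3333, 2647 and 6009 against 3772, 5270 and 2183 CPM, and those groups overlapped (interaction log2 -1.50, SE 0.28, edgeR adjusted p = 0.000371). Col3a1 had 190.9, 665 and 519 against 295, 176 and 223 CPM in the other TECs, where the highest WT value lay above the lowest of the heterozygotes (interaction log2 -1.36, SE 0.29, edgeR adjusted p = 0.00293). This call was lost in 4 of the fits that left out a library, and without replicate 2 of the heterozygotes the adjusted p was 0.0814. Abca8a, Lsamp and Zim1, which are leading genes, and Eng, the endothelial and mesenchymal endoglin, had interaction values of -3.02, -2.89, -2.71 and -2.66. Gnb3 (-4.79) and 5430431A17Rik (-4.46) rest on WT replicate 2, with 270 and 341 CPM in its 17 cells labelled nTEC and at most 11.4 CPM in such cells of any other library. Cxcl5 had a value of -2.76 that rests on WT replicate 3. In the cells labelled nTEC it had 40.2, 34.2 and 32.3 CPM in the heterozygotes and 0, 14.2 and 133 CPM in WT. Lsamp had 40.2, 42.8 and 32.3 CPM against 0, 284 and 87.8 CPM there, with the highest value in WT replicate 2. Ptgds (4.44), Saa3 (3.48) and Gm26870 (2.75) were the largest in the other direction. DESeq2 called 0 genes of this interaction. Without replicate 2 of the heterozygotes 4 genes were called, 3 of them among the 27, without WT replicate 2 there were 2 and without WT replicate 3 there were 6.

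Sorted populations sequenced in bulk did not enter the clustering and were used to place the leading genes among cells defined by surface markers. These libraries came from WT mice at P0 and at 4 weeks (W4), with 6 per population, 5785352 to 14454727 reads each, and their read counts are given as CPM. In bulk, fewer cells of a type and less RNA per cell cannot be told apart. At P0 the 100 leading genes summed to 859 to 1358 CPM in cortical TECs (cTECs), to 1714 to 2000 in medullary TECs (mTECs), to 107064 to 121946 in gp38+CD26- and to 116347 to 167870 in gp38+CD26+ fibroblasts. In an added comparison of both gp38+ populations with both TEC populations at P0, all 100 leading genes were higher in gp38+ cells, where 21.3% of 16203 genes were higher and 27.5% lower, and their median log2 difference was 7.35 against -0.20 over all genes (edgeR, quasi-likelihood). Pdgfra had 0 reads in all 6 cTEC libraries at P0, at most 4.59 CPM in mTECs and 724 to 1405 in the gp38+ libraries. Cpe had 0 to 9.09 CPM in cTECs, 2.18 to 30.6 in mTECs and 726 to 2014 in the gp38+ libraries.

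**Figure D5:**
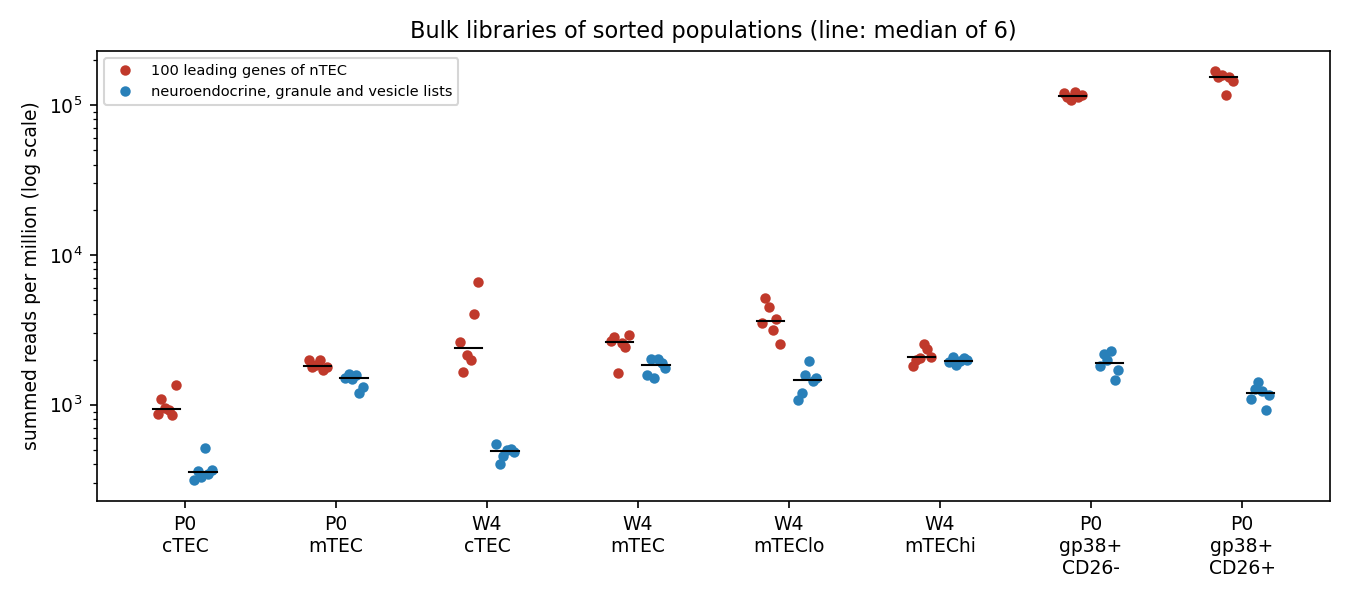
Summed CPM on a log scale of the 100 leading genes of the cells labelled nTEC (red) and of the neuroendocrine, granule and vesicle lists (blue) in each bulk library of 8 sorted populations, with the median of 6 as a line. The leading genes reach 107064 or more in the gp38+ fibroblast populations and stay at 6609 or less in every TEC library.

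Within the TEC populations the leading genes were unevenly divided. Between mTECs and cTECs at P0, 41 of 97 leading genes tested were higher in mTECs, where 29.2% of all 18847 genes were, and 4 were lower, where 8.28% were. Their median log2 difference was 2.40, or 2.26 with the 21 genes that had 0 reads in 1 population set at the bound that 3 reads per library give, against 0.35 over all genes. Markers of other cell types moved with them in this comparison, with 5 of 6 endothelium genes and 6 of 7 erythroid genes higher in mTECs and 0 lower in both lists, and their part in the result was not tested. Lum, for example, was listed at 0 in most cTEC libraries (median 0, highest 13.4) and ranged from 36.5 to 56.5 CPM in mTECs (log2 4.21, SE 1.25, edgeR adjusted p = 0.00789). Ptn, pleiotrophin, went the other way, with 71.2 to 97.8 in cTECs and 27.2 to 35.7 in mTECs (log2 -1.31, SE 0.52, edgeR adjusted p = 0.0434).

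At W4 the shares were near those of all genes, with 20 of 97 leading genes higher in mTECs (26.4% of all genes) and 9 lower (11.5%). Between mTEChi and mTEClo, the mTECs with high and low MHC class II, 16 were higher (17.9% of all genes) and 9 lower (5.8%). From P0 to W4 in mTECs, 7 were higher at W4 (3.72% of all genes) and 1 lower (2.83%). Col3a1 was among those lower in mTEChi, with 1.91 to 12.04 CPM against 0.226 to 275 in mTEClo (log2 -3.33, SE 1.24, edgeR adjusted p = 0.0484), and these ranges overlapped.

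The neural lists were also mostly higher in mTECs than in cTECs. Of the neuroendocrine transcription factors tested at P0, 10 of 11 were higher in mTECs and 1 lower, where 29.2% of all genes were higher and 8.28% lower. Of the granule genes 11 of 14 were higher and 0 lower, and of the vesicle genes 15 of 23 were higher and 0 lower. Lists of other tissues did likewise, with 9 of 10 skeletal muscle genes, 6 of 6 ionocyte genes and 8 of 9 enterocyte and hepatocyte genes higher. The median log2 differences of the neural lists were 4.34, 3.35 and 2.70 with genes at 0 in 1 population set at their bound. Neurod1 had 0 reads in all cTEC and gp38+ libraries at P0 and 1.80 to 14.8 CPM in mTECs. Chga ranged from 0 to 44.6 in cTECs and from 1.79 to 22.7 in mTECs, which did not pass (edgeR adjusted p = 0.806). Against both TEC populations, 0 of 8 neuroendocrine transcription factors were higher in gp38+ cells and 2 lower, with 2 granule genes higher and 5 lower of 10 tested and 4 vesicle genes higher and 8 lower of 20, where 21.3% of all genes were higher and 27.5% lower.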

How the data were processed

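Droplet 3′ RNA-seq was read for 3 Tbx1+/-Crkl+/- and 3 WT stroma libraries at P0, and bulk RNA-seq for 48 libraries of sorted cells. UMI counts were obtained by the authors with Cell Ranger 3.1.0 and deposited unnormalised, as whole numbers for every gene in every cell, beside a table of cell labels. Their methods state a minimum of more than 1000 genes and DoubletFinder singlets, and 36 of the 252 cells labelled nTEC hold 1000 genes or fewer, with 901 as the lowest. Bulk read counts were deposited per Ensembl gene, and 98 entries that name no gene (9.36 to 16.6% of the reads) were left out.

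UMIs were summed per label and library. Libraries were the replicates. Tests used edgeR 4.0.16 in R 4.3.3 (filterByExpr, TMM factors, quasi-likelihood, Benjamini-Hochberg adjustment over all genes tested, threshold 0.05), with DESeq2 1.42.0 as an alternative, after trials on simulated data. In these trials 200 genes were given a log2 change of 2. The genotype test recovered 81.5% of them among 807 genes and the interaction test 7% among 11902. The test of mTECs against cTECs at P0 recovered 93.5% among 18847. The share of genes changed thus differed between the trials, so these rates cannot be compared. The genotype test may recover fewer where a smaller share of the genes changes. The interaction test, with 7% recovered, can miss most changes of that size. Descriptions used Python 3.11.15. The genotype test took libraries with at least 5 cells labelled nTEC. For the interaction each library was a block. Bulk TEC comparisons shared 1 fit of 36 libraries, and the comparison with gp38+ cells was added after the data were seen, as was the weighted sum of 2 profiles. The numbers in the bulk titles run with the same spacing in each population of an age. The titles do not say whether the same mice gave several populations, and the bulk fits had no term for it.

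Leading genes are the 100 with the largest log2 ratio of CPM plus 5 to the other TECs, pooled, among genes with a UMI in at least 3 libraries and 10% of the cells labelled nTEC. The text names the first 25, those in a gene list, up to 6 members of each list, listed members at 0, and the 10 largest effects of each test. Nav2, Lum and Ccl21a in the genotype test, and Meg3 and Col3a1 in the interaction, were named after their values were seen. Some single members of the lists are not reported here. The members and lists were chosen with earlier results of these data known. A level of 0 is limited by 3 counts, and intervals cover counting error. Alternatives were other size factors, filters, depths, references and denominators, a replicate block, and leaving out each library. The titles of the bulk libraries carry the prefix DFCK or TXCK, which they do not explain, and this prefix was also tried as a term.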

Additional observations from a re-analysis of the deposited data

Results flagged for a closer look

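The genotype difference in the cells labelled nTEC differed from that in the other TECs for 10 genes that had the largest differences past the threshold of the interaction test in edgeR. On the log2 scale the difference between the effects was -4.79 for Gnb3, -4.46 for 5430431A17Rik, 4.44 for Ptgds, 3.48 for Saa3, -3.02 for Abca8a, -2.89 for Lsamp, -2.76 for Cxcl5, 2.75 for Gm26870, -2.71 for Zim1 and -2.66 for Eng. Of these, DESeq2 called 0. Ptgds and Saa3 had UMIs in the cells labelled nTEC of only Tbx1+/-Crkl+/- replicate 2 and WT replicate 3, at 34.2 and 6.51 CPM for Ptgds and 59.9 and 16.3 CPM for Saa3.

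In bulk, 24 sets of 6 libraries were checked for 1 library far from the other 5, and 3 were found, where chance gives about 1 in 20. Lum had 13.4 CPM in 1 cTEC library at P0, with a median of 0 over the 6. Chga had 44.6 CPM in 1 cTEC library at P0, with a median of 1.10. Neurod1 had 14.8 CPM in 1 mTEC library at P0, with a median of 4.75.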

How the results depend on the processing

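Of 98 alternatives to 14 results, 82 kept the direction and the side of the threshold, or moved by less than 1 SD or 1.5 times, 15 moved further and 1 reversed. The added comparison with gp38+ cells had no alternative. With MmTEC alone as the reference 60 of the 100 leading genes were shared with the list above, and leaving out 1 library left 79 to 98. The summed mesenchyme, TEC, MHC class II, granule, neuroendocrine factor and neural crest lists of the cells labelled nTEC, as means over libraries, stayed within 1 SD in the alternatives run for them. Leaving 1 of 6 libraries out cannot move a mean by 1 SD. Those alternatives were bound to be counted among the 82 and do not test how stable the lists are. The count of genes that differed by genotype was 0, and became 3 with no filter beyond 1 count and 1 with only libraries of at least 10 cells labelled nTEC. Leaving out 1 library gave 0 to 5. The log2 difference in share was 0.62, and -0.89 to 1.26 without 1 library, with -0.89 without replicate 2 of the heterozygotes. The count of the interaction, 27, became 48 with no filter beyond 1 count, 0 with DESeq2, and 2 to 80 without 1 library, and 45 and 80 of these came without replicate 1 of the heterozygotes or of WT. DESeq2 called 1994 genes between W4 and P0 in mTECs where edgeR called 1235. The causes of these changes were not tested.

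With the replicate number as a block, 2 genes differed by genotype in place of 0, Nav2 among them (edgeR adjusted p = 0.0327), and the log2 difference in share was 0.29. Whether the numbers pair the libraries could not be told from these data. The deviations of same-numbered libraries had r of 0.02, -0.15 and -0.15 over 807 genes in the cells labelled nTEC. In the other TECs r was 0.25, -0.02 and -0.67 over 7422 genes, and not every pair was above 0.1. Sums of as few as 6 cells are noisy, so a low r cannot exclude pairing. The depth of 252 cells, 805689 UMIs in all, limits the levels of rare transcripts.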

Other observations

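Some genes of vessels and of thymocytes stood above the weighted sum of the TEC and fibroblast profiles. Of the 18 eligible genes over 1 log2 unit above it, Cldn5 (77.0 CPM against 21.9 CPM in the sum), Cav1 (94.3 against 27.8 CPM), Cdh5 (50.9 against 14.1 CPM) and Cd36 (69.5 against 21.4 CPM) were highest in endothelial labels. Satb1 (70.7 against 16.8 CPM) and Trbc2 (78.2 against 19.9 CPM), a chromatin organiser of T cells and a T cell receptor constant region, were highest in thymocytes. All 6 genes of the endothelium list and all 9 of the thymocyte list were higher in the cells labelled nTEC than in the other TECs, with sums of 253 against 81.5 CPM and 142.7 against 31.1 CPM. Most UMIs of both lists came from replicate 2 of the heterozygotes, and the other 5 libraries held 60 UMIs of the endothelium list and 19 of the thymocyte list. Without that replicate the sums were 131.8 against 56.97 CPM, with all 6 genes still higher, and 41.7 against 16.6 CPM, with 6 genes higher and 3 lower. In WT replicates 2 and 3 the thymocyte list had 0 and 6.51 CPM in the cells labelled nTEC, below the 16.9 and 12.9 CPM of the other TECs. Without WT replicate 3 it had 226.8 CPM. The sums ranged widely between libraries, from 94.3 to 605 CPM and from 0 to 274 CPM, and among the 29 labels the cells labelled nTEC were second after the thymocytes for the thymocyte list, which had 3765 CPM there.

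The peptide hormone list summed to 375 CPM in the pooled cells labelled nTEC, 318 CPM in the other TECs and 347 CPM in the fibroblast labels. Of its 20 genes 10 were higher and 10 lower than in the other TECs. WT replicate 3 held 171 of the 302 UMIs. Without it the sums were 262.9 against 258.9 CPM, with 6 genes higher and 13 lower. In replicate 2 of the heterozygotes the list stood at 199.7 against 267.9 CPM. Penk, the precursor of enkephalins, had 180 CPM in the cells labelled nTEC, 78.2 CPM in the other TECs and 315 CPM in the fibroblast labels, and 79 of the 252 cells labelled nTEC (31.3%) held a UMI of it. Nts, neurotensin, had 29 UMIs in 12 cells labelled nTEC, and Sst, somatostatin, had 17 UMIs in 3 of them. Ghrl, Gcg and Ins2 had 0 UMIs.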
